A study of Xenopus laevis with 4 samples.

Results

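The genes described here encode the proteins that hold embryonic cells to each other and to the extracellular matrix. They were chosen by name alone, as the genes whose symbol, without the ending that marks the L or S copy, begins with the stem of an integrin, cadherin, catenin, plakophilin, claudin, laminin, collagen, ADAM protease or another adhesion, junction or matrix protein. At stage 0, 218 of the 16233 listed 5-methylcytosine (m5C) sites lay in 63 such genes, of 7140 genes with a listed site. At stage 25, none of the 45 listed sites, in 41 genes, did. The name pattern also takes in col4a3bp.L and col4a3bp.S, which encode a ceramide transfer protein and share only their stem with the collagens. They are counted with the others and described last.

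The sites come from RNA bisulfite sequencing of polyadenylated RNA of Xenopus laevis, an allotetraploid frog whose genes are often kept as a copy on an L and a copy on an S chromosome. Pools of wild-type embryos, with no treatment, were taken at stage 0, when the mRNA is maternal, or at stage 25, when it is largely transcribed by the embryo. There were 2 libraries for each stage, and the authors combined them into 1 site list per stage, so no spread between replicates can be given for a site. The stage 25 libraries are labelled X. laevis as organism but have titles that begin with XT. The m5C level of a site is the percentage of C reads among its C and T reads, since bisulfite turns unmethylated cytosine into a base read as T. Positions are those of the deposited lists, on the v9.2 genome build.

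Integrins are paired transmembrane receptors for fibronectin and laminin, and the kindlin, paxillin and vinculin group connects them to actin. Cadherins join neighbouring cells and are tied to the cytoskeleton by catenins or, in desmosomes, by plakophilins and desmoplakin, while claudins and occludin seal tight junctions. The frog egg divides into an epithelium that adheres and seals from the first cleavages on, before the embryo transcribes its own genes, and fibronectin bound by integrins is needed for the cell movements of gastrulation. In mRNA, m5C is deposited mainly by the methyltransferases NSUN2 and NSUN6.

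The 63 genes held 3.46 listed sites each, compared with 2.27 for all listed genes. Of them, 18 (28.6%) had only 1 site, whereas 45.4% of all listed genes did. At the other end, 16 (25.4%) had at least 5 sites, compared with 9.73% of all listed genes, and 4 (6.35%) had at least 10, compared with 0.924%. Those 4 were fn1.S and sptbn1.S with 13 sites each, sptbn1.L with 11 and col17a1.S with 10. The share of genes with many sites was therefore higher here than in the list as a whole, and mRNA length was not set beside it. Because a site needs coverage to be listed, the coverage goes beside these counts: the median was 170.5 reads per site (range 32 to 33987), compared with 146 for all listed sites, and the part of coverage in the counts was not tested. Taken per gene instead, as the median over genes of their median coverage, it was 89 reads for genes with 1 site. For genes with 2 to 4 sites it was 220, and for genes with at least 5 it was 206.

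The methylation levels, in contrast, were close to those of the whole list when each site was counted once. The median was 21.3% (quartiles 14.3% and 33.9%), compared with 21.1% (13.9% and 37.5%) over all listed sites, and the mean was 29.7% ± 22.0 (SD over 218 sites), compared with 29.4% ± 21.1. In these genes 101 sites (46.3%) were below 20%, and the share over all sites was 47.2%. A level of at least 50% was reached by 34 sites in 23 genes (15.6%, compared with 16.3% of all sites) and a level of at least 80% by 13 sites in 11 genes (5.96%, compared with 4.78%). The 95% Wilson intervals, which cover counting error only and treat each read as an independent molecule, had a median half-width of 5.63 percentage points.

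**Figure D1:**
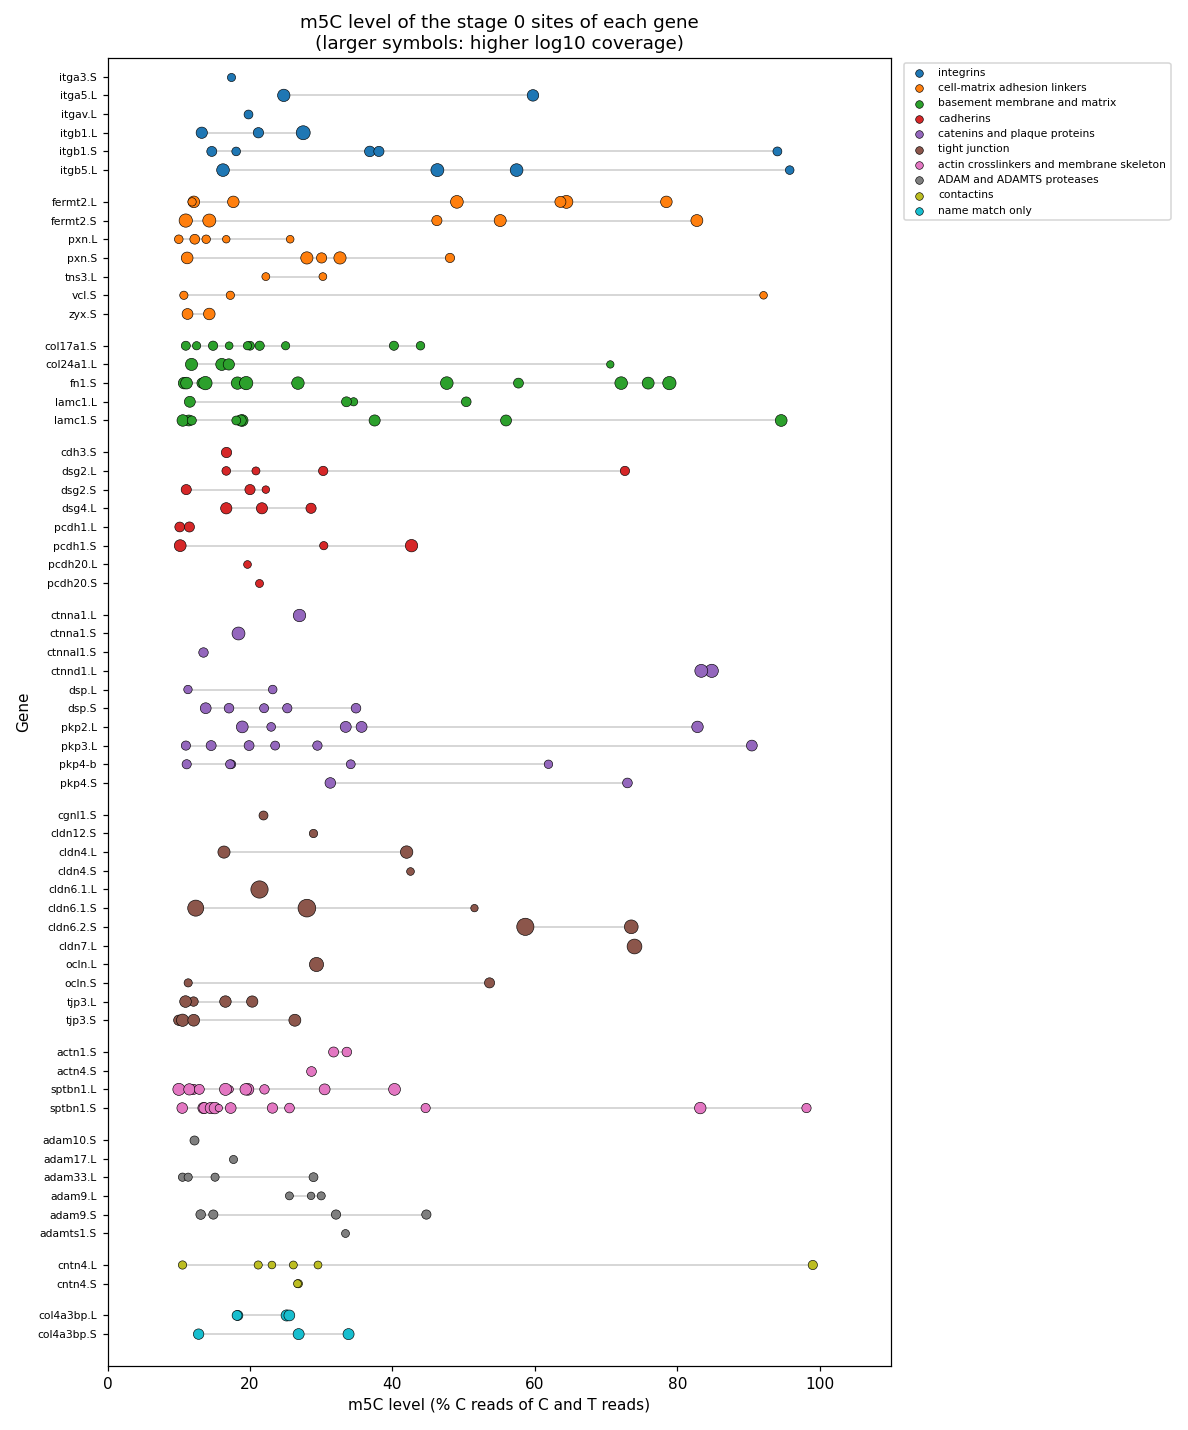
Each point is a listed stage 0 m5C site of the genes described, placed at its methylation level in percent on the horizontal axis and in the row of its gene, coloured by gene family, with larger symbols for higher coverage and a grey line from the lowest to the highest site of a gene. The levels run from 10% to 99.0%, and in genes such as cntn4.L (99.0%), vcl.S (92.1%) and pkp3.L (90.5%) the highest site lies far from the others.

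To see whether the sites of a gene shared a level, their C and T reads were compared by a chi-square test of homogeneity. Benjamini-Hochberg adjustment was made over the 3895 listed genes with at least 2 sites. The sites differed in 34 of the 45 adhesion, junction and matrix genes with several sites (75.6%), and 74.4% of all genes tested were called. The share among these genes was thus that of the list as a whole. The test takes no account of the spread between replicates, and neighbouring sites can be read from the same fragments.

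Receptors for the matrix are described first. Integrins were represented by 16 sites in 6 genes, with a median of 26.1%, and both main partners of the fibronectin receptor were among them. In itga5.L, which encodes the α5 subunit, a site on chromosome 2L at position 147308616 was at 24.7% (191 of 772 reads) and another at 147321548 was at 59.7% (264 of 442 reads). Their intervals, 21.8% to 27.9% and 55.1% to 64.2%, did not overlap.

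The β1 subunit, the partner shared by most integrin α subunits, had sites in both copies, 3 in itgb1.L and 5 in itgb1.S. The sites of itgb1.L on chromosome 6L were at 27.5% (642 of 2337 reads), 13.2% (50 of 378) and 21.2% (43 of 203). Those of itgb1.S on chromosome 6S were, in the direction of transcription, 14.6% (24 of 164 reads) and 18.1% (13 of 72), then 36.8% (88 of 239) and 38.1% (72 of 189), and last 94.0% (79 of 84). The last one, at position 16002835, stood apart with an interval of 86.8% to 97.4%, and the levels in itgb1.S differed (chi-square test, adjusted p = 9.64e-34). In itgb1.L all levels stayed below 30%, and they also differed (chi-square test, adjusted p = 2.02e-08).

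The β5 subunit, which pairs with αv, showed a span about as wide as that of itgb1.S. In itgb5.L on chromosome 9_10L the levels were 16.2% (154 of 950 reads), 57.4% (572 of 996), 46.3% (533 of 1151) and 95.8% (68 of 71) in the direction of transcription (chi-square test, adjusted p = 3.28e-96). The most methylated site, at position 45959065, was the most 3′ one. It was covered by 71 reads against 950 to 1151 at the other 3 sites, and the reason for that drop was not tested. In itgb1.S the highest site also lay most 3′, but in vcl.S, pxn.S and col24a1.L it lay most 5′. This place was not counted over all genes. The αv subunit itself had 1 site in itgav.L at 19.8% (16 of 81 reads), and the laminin receptor subunit α3 had 1 in itga3.S at 17.3% (9 of 52 reads).

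The proteins that link integrins to actin held 29 sites in 7 genes (median 22.2%), and those of kindlin-2, an integrin activator encoded by fermt2, were among the most methylated. In fermt2.L on chromosome 8L, 3 of 7 sites exceeded 60%, at 63.6% (206 of 324 reads), 64.4% (737 of 1144) and 78.5% (357 of 455). The other 4 were at 11.9% (7 of 59 reads), 17.7% (80 of 453), 49.0% (489 of 997) and 12.1% (59 of 487). High and low sites thus lay in the same gene (chi-square test, adjusted p = 8.72e-162). In fermt2.S on chromosome 8S the 5 sites were at 46.2% (86 of 186 reads), 14.3% (176 of 1232), 11.0% (157 of 1430), 55.1% (344 of 624) and 82.7% (489 of 591). The last of these, at position 14153431, was the most 3′ site and had an interval of 79.5% to 85.6%.

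Paxillin, a scaffold of focal adhesions, had 5 sites in each copy. In pxn.S on chromosome 1S the most 5′ site was at 48.1% (50 of 104 reads). Those after it were at 30.1% (58 of 193), 32.6% (233 of 714), 11.2% (57 of 510) and 28.0% (197 of 704). In pxn.L the 5 sites ran from 10% to 25.6%, on 36 to 147 reads, and no difference among them was detected (chi-square test, adjusted p = 0.248). Vinculin, which binds both talin and actin, had 3 sites in vcl.S on an unplaced scaffold. In the direction of transcription they were at 92.1% (35 of 38 reads), 17.2% (10 of 58) and 10.7% (6 of 56). The interval of the highest, 79.2% to 97.3%, was wide because of its 38 reads but lay far above the others. Zyxin, another actin-bound adhesion protein, had zyx.S sites at 11.2% (32 of 285 reads) and 14.3% (66 of 462), and the tensin gene tns3.L had sites at 30.2% (13 of 43) and 22.2% (10 of 45). In neither gene was a difference detected (chi-square test, adjusted p = 0.274 for zyx.S and 0.448 for tns3.L). No talin or parvin-α gene was listed.

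Matrix and basement membrane genes were the family with the most sites, 40 in 5 genes (median 19.4%). Fibronectin, the ligand of the α5β1 integrin, carried 13 sites in fn1.S on chromosome 9_10S. Of these, 4 exceeded 50%, namely position 67408841 at 72.1% (675 of 936 reads), 67411012 at 75.9% (441 of 581), 67415286 at 57.7% (90 of 156) and 67419498 at 78.9% (1158 of 1468). Another was at 47.6% (452 of 949 reads), and the remaining 8 ran from 10.7% to 26.7% on 181 to 1514 reads. Low and high sites overlapped in coverage. The site of highest coverage, 67394201, was at 13.7% (208 of 1514 reads), and the copy fn1.L was not listed.

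The γ1 chain of laminin, shared by most laminin trimers, had sites in both copies. In lamc1.S on chromosome 4S, position 73454056, the most 3′ of 9 sites, was at 94.6% (506 of 535 reads, interval 92.3% to 96.2%). Position 73525430 was at 55.9% (174 of 311 reads), position 73472922 at 37.5% (129 of 344), and the other 6 were between 10.6% and 18.9%. A single nearly fully methylated position therefore stood beside 6 sites below 20% (chi-square test, adjusted p = 9.67e-250). In lamc1.L the 4 sites were at 50.4% (70 of 139 reads), 33.5% (53 of 158), 11.6% (35 of 303) and 34.5% (19 of 55).

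The collagens differed from each other in the number of sites. In col17a1.S, which encodes a transmembrane collagen of hemidesmosomes, 10 sites spanned 11.0% to 43.9% on 41 to 108 reads, and none reached 50%. In col24a1.L, which encodes a fibrillar collagen, 3 sites were at 16.0% (102 of 636 reads), 11.8% (81 of 687) and 17.0% (63 of 370). A further one, at position 66059917, was at 70.6% (24 of 34 reads, interval 53.8% to 83.2%), on far fewer reads than its neighbours.

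**Figure D2:**
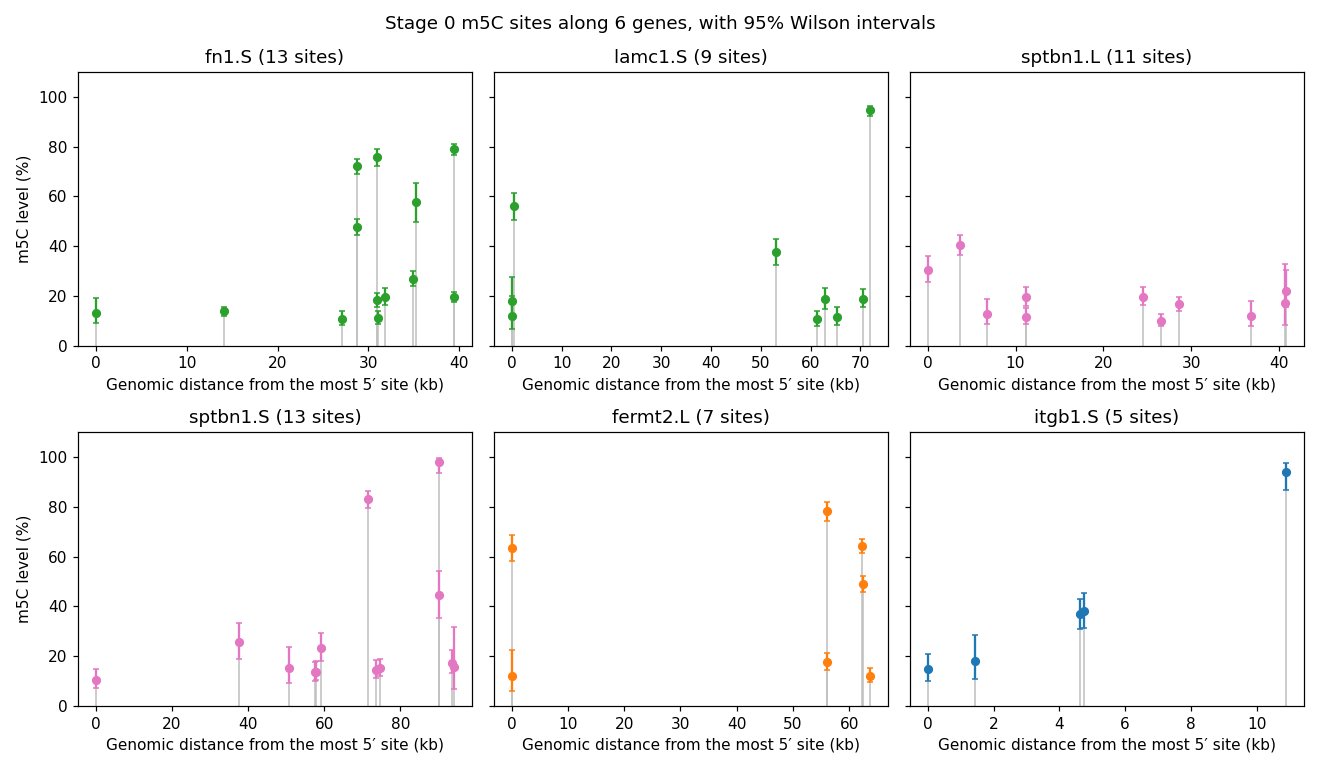
The level in percent of each stage 0 site, with its 95% Wilson interval, is drawn against the genomic distance in kb, introns included, from the most 5′ site of fn1.S, lamc1.S, sptbn1.L, sptbn1.S, fermt2.L and itgb1.S. Sites above 50% lie among sites below 20% in fn1.S, lamc1.S, sptbn1.S and fermt2.L, whereas sptbn1.L has no site above 40.3%.

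The membrane skeleton genes, spectrins and α-actinins, held 33 sites in 5 genes, with the lowest family median of 17.3%. Spectrin β chains line the inner face of the plasma membrane and tie it to actin. In sptbn1.S on chromosome 5S, 11 of 13 sites lay between 10.5% and 44.7%, while position 25238319 was at 83.2% (362 of 435 reads) and position 25256968 at 98.1% (105 of 107 reads, interval 93.4% to 99.5%). In sptbn1.L on chromosome 5L the 11 sites ran from 10% to 40.3% (220 of 546 reads at the highest), with a median of 17.1%, close to the 15.6% of the S copy. The copies thus had similar medians and differed in their highest listed sites. The α-actinins, which crosslink actin filaments, had low to moderate sites, at 33.6% (43 of 128 reads) and 31.7% (53 of 167) in actn1.S and at 28.6% (40 of 140) in actn4.S. No filamin gene was listed.

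At cell to cell contacts, cadherins held 18 sites in 8 genes (median 20.4%), of which only 1 exceeded 50%. The single site of a classical cadherin was in cdh3.S, on chromosome 4S at position 41974270, and was at 16.6% (34 of 205 reads). Desmogleins, the cadherins of desmosomes, had 10 sites. In dsg2.L on chromosome 6L, position 111764137 was at 72.6% (77 of 106 reads), while the other 3 sites were at 16.7% (12 of 72), 30.3% (33 of 109) and 20.8% (10 of 48). In dsg2.S the levels were 11.0% (20 of 181 reads), 20.0% (38 of 190) and 22.2% (8 of 36), a difference that just missed the threshold (chi-square test, adjusted p = 0.0517). In dsg4.L they were 21.7% (75 of 346), 28.6% (54 of 189) and 16.7% (62 of 372).

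Protocadherins, a larger cadherin branch of surface receptors, were listed for 2 names. In pcdh1.S on chromosome 3S, position 115330036 was at 42.7% (341 of 799 reads) and position 115330223 at 10.2% (56 of 549), and the remaining site was at 30.4% (17 of 56). In pcdh1.L both sites were low, at 10.1% (15 of 148 reads) and 11.5% (20 of 174). The copies of pcdh20 had 1 site each, at 19.5% (8 of 41 reads) and 21.3% (10 of 47), and their intervals overlapped.

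The catenins and desmosomal plaque proteins held 30 sites in 10 genes (median 23.4%), 6 of them above 50%. The p120 catenin gene ctnnd1.L, whose product stabilises cadherins at the membrane, had only 2 sites, and both were high. On chromosome 7L, position 53566664 was at 84.8% (1141 of 1345 reads) and position 53614774 at 83.4% (947 of 1136), with no difference detected (chi-square test, adjusted p = 0.369). Of the 11 genes with a site of at least 80%, it had the highest level outside its top site by the median of the other sites, which was at most 46.3% in the other 10. The α-catenin gene, which connects the cadherin complex to actin, had 1 site in each copy, at 26.9% (222 of 824 reads) in ctnna1.L and 18.3% (203 of 1108) in ctnna1.S. Its relative ctnnal1.S had 1 site at 13.4% (16 of 119 reads).

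Plakophilins bind desmosomal cadherins, and each of the listed plakophilin genes had a site above 60%. In pkp2.L on chromosome 3L, position 2166545 was at 82.8% (357 of 431 reads) and the other 4 sites ran from 18.9% to 35.7%. In pkp3.L on chromosome 4L, position 15526046 was at 90.5% (256 of 283 reads, interval 86.5% to 93.4%), and the other 5 ran from 11.0% to 29.5%. In both genes the high level was thus at a single position among lower ones. The fourth plakophilin had a site at 61.9% (39 of 63 reads) in pkp4-b and one at 73.0% (100 of 137 reads) in pkp4.S. Desmoplakin, which anchors intermediate filaments to the plaque, had none above 35%. Its 5 sites in dsp.S were between 13.8% and 34.9% on 91 to 283 reads, and its 2 sites in dsp.L were at 23.2% (16 of 69) and 11.3% (7 of 62).

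Tight junction genes held 23 sites in 12 genes (median 21.8%) and the deepest coverage, with 63.7% of all C and T reads counted here. Claudins form the paracellular seal, and the 6 sites of the 3 cldn6 genes alone took 56.4% of the reads. In cldn6.1.S on chromosome 9_10S, position 102059460 was at 28.0% (9513 of 33987 reads) and position 102059953 at 12.4% (1246 of 10063). In cldn6.1.L on chromosome 9_10L, position 114681827 was at 21.3% (5161 of 24214 reads). At these deeply covered sites C was therefore the minority read.

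The neighbouring gene cldn6.2.S on the opposite strand was higher, at 73.5% (1475 of 2006 reads) at position 102048700 and 58.7% (13340 of 22742) at position 102049215. Reads from such similar copies can be assigned to the wrong one, so the split among the cldn6 genes is uncertain. A last site in cldn6.1.S, at 51.5% (17 of 33 reads), had a wide interval of 35.2% to 67.5%. In cldn7.L on chromosome 3L, position 143935892 was at 74.0% (3042 of 4112 reads, interval 72.6% to 75.3%), and it was the only one of the 18 single-site genes to reach 50%.

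The other claudins were lower. In cldn4.L the sites were at 16.3% (111 of 679 reads) and 42.0% (346 of 824), in cldn4.S the site was at 42.5% (17 of 40), and in cldn12.S it was at 28.8% (17 of 59). Occludin, a tight junction membrane protein, had a site at 29.3% (767 of 2616 reads) in ocln.L and sites at 53.6% (96 of 179) and 11.3% (6 of 53) in ocln.S. The scaffold gene tjp3, which encodes ZO-3, had 4 sites in each copy and none above 30%. They ran from 10.9% to 20.3% on 116 to 475 reads in tjp3.L and from 10% to 26.3% on 200 to 731 reads in tjp3.S. The paracingulin gene cgnl1.S had 1 site at 21.8% (19 of 87 reads).

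**Figure D3:**
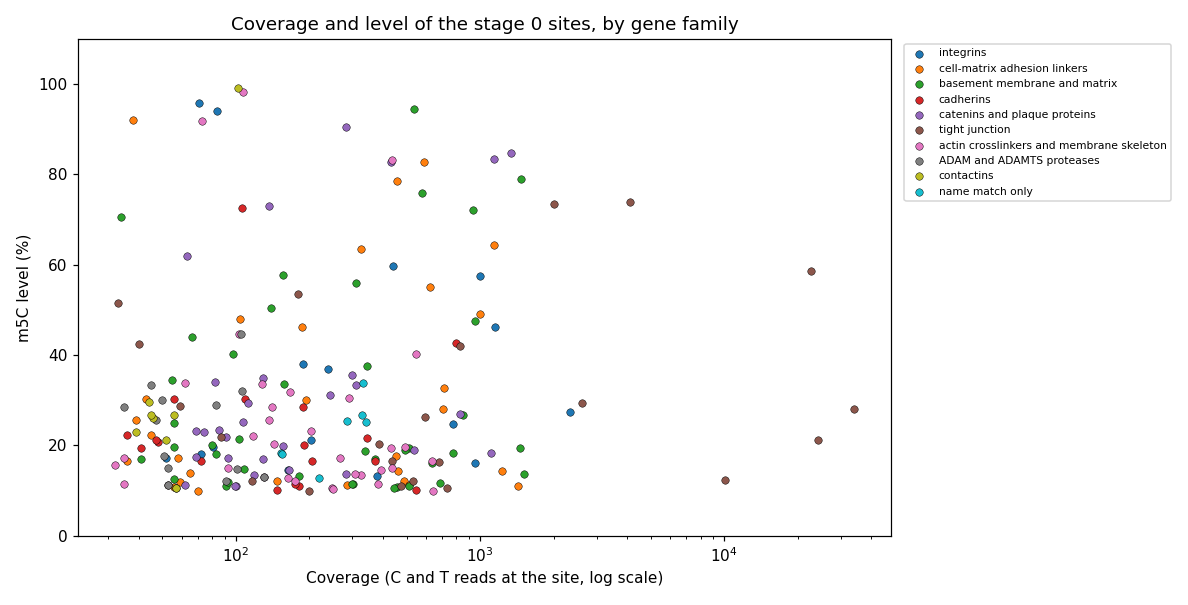
Each stage 0 site is placed by its coverage in C and T reads, on a log scale, and its methylation level in percent, coloured by gene family. Sites of at least 80% appear from 38 to 1345 reads, and the 4 most deeply covered sites, all in cldn6 genes, lie between 12.4% and 58.7%.

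The ADAM and ADAMTS proteases, which shed surface proteins or cleave the matrix, held 14 sites in 6 genes at shallow coverage of 35 to 130 reads (median 21.6%), and none reached 50%. The highest was in adam9.S at 44.8% (47 of 105 reads), beside 32.1% (34 of 106), 14.9% (15 of 101) and 13.1% (17 of 130). In adam9.L the 3 sites were at 25.5% (12 of 47 reads), 28.6% (10 of 35) and 30% (15 of 50), and no difference was detected (chi-square test, adjusted p = 0.906). The main sheddases of Notch and of growth factor precursors were each listed with 1 low site, adam10.S at 12.1% (11 of 91 reads) and adam17.L at 17.6% (9 of 51). In adam33.L the 4 sites were at 10.5% to 28.9%, and in adamts1.S the site was at 33.3% (15 of 45).

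Contactin-4, an immunoglobulin-type adhesion protein known from neurons, held the highest level of the 218 sites. In cntn4.L on chromosome 4L, 101 of 102 reads were C at position 123701715 (99.0%, interval 94.7% to 99.8%), its most 5′ site. The other 5 sites of this copy were between 10.5% and 29.5% on 39 to 57 reads, and cntn4.S had sites at 26.8% (15 of 56 reads) and 26.7% (12 of 45). The name matches col4a3bp.L and col4a3bp.S had 4 and 3 sites, between 12.8% and 33.8% on 153 to 342 reads.

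Across families, genes with a high site more often had 1 than several, but several were more frequent here than over the list. Of the 45 genes with several sites, 23 (51.1%) had none of at least 50%, 14 (31.1%) had 1 and 8 (17.8%) had more. Over all 3895 genes with several sites these shares were 58.0%, 32.2% and 9.73%. The genes here also held more listed sites each, 3.46 compared with 2.27, while 15.6% of sites reached 50%, compared with 16.3%. The part of site number in these shares of genes was not tested. All 11 genes with a site of at least 80% had several sites. In 6 of them the next site was below 50%, as in cntn4.L, pkp3.L and vcl.S. These 2 counts were not taken over the 726 listed genes with such a site. They are therefore not set apart from the list. The highest level of a gene was also higher in genes with more sites, with a median of 21.3% for 1 site, 33.8% for 2 to 4 and 80.8% for at least 5, where the maximum is taken over more values.

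Sites of unlike level also lay side by side. In fn1.S, position 67419497 was at 19.5% (283 of 1454 reads) and the next base, 67419498, was at 78.9% (1158 of 1468). In fermt2.L the adjacent positions 70840071 and 70840070, in the direction of transcription, were at 17.7% (80 of 453 reads) and 78.5% (357 of 455). In both pairs the 3′ cytosine was the higher one on almost the same number of reads. The remaining adjacent pair, in col4a3bp.L, had equal levels within counting error, at 18.2% (28 of 154) and 18.3% (28 of 153). Over all 236 adjacent pairs of the list the 3′ cytosine was higher in 114 and the 5′ one in 120.

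Within 50 nt, 12 of 155 neighbouring pairs were found (7.74%, compared with 10.5% over the list). Their median difference in level was 23.8 percentage points, compared with 15.3 over the list, and that of pairs farther apart was 12.3, compared with 13.8. In sptbn1.S the positions 25256926 and 25256968 were at 44.7% (46 of 103 reads) and 98.1% (105 of 107). In fn1.S the positions 67411012 and 67411050 were at 75.9% (441 of 581) and 18.2% (141 of 773). The order of high and low thus differed between these pairs. The 12 pairs lay in 10 genes.

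The L and S copies allowed a comparison of the same gene within a list. Of 45 names with an L or S ending, 17 (37.8%) had sites in both copies, 13 only in L and 15 only in S. The gene pkp4.S counts as S only, because pkp4-b on chromosome 9_10L has no such ending. Over all 4684 such names, 22.0% had both, and L only (2296) was more frequent than S only (1357). The genes here held more listed sites each (3.46 compared with 2.27), and the part of site number in the 37.8% was not tested. Among the 17 pairs, the S copy had more sites in 8, the L copy in 5, and 4 were equal. Because levels, coverage and copy numbers come from the same combined list, these counts are a description.

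The highest level was found in the S copy in 14 of the 17 pairs, compared with 510 of 1031 pairs (49.5%) over the list. In 8 of those 14 pairs, however, the 95% Wilson intervals of both maxima overlapped (adam9, cldn4, col4a3bp, dsp, fermt2, pcdh20, pxn and tjp3). The intervals did not overlap in 6 pairs with a higher S copy and 3 with a higher L copy. Among the 6 was cldn6.1, whose S maximum rests on 33 reads and whose split of reads is uncertain. Interval overlap was not counted over the list, and the maxima were often taken over unequal numbers of sites. Positions were not matched between the copies, so the maxima do not compare the same cytosine. The matching cytosine of the other copy may be unlisted, for example because of low coverage. The median absolute difference between the maxima was 22.4 percentage points, compared with 22.7. The highest listed level was higher in the S copy by a wide margin in itgb1 (94.0% in S, 27.5% in L), sptbn1 (98.1% and 40.3%) and lamc1 (94.6% and 50.4%). The opposite order was seen in cntn4 (26.8% in S, 99.0% in L), where the difference was the largest of the 17 pairs at 72.2 percentage points, in dsg2 (22.2% and 72.6%) and in ctnna1 (18.3% and 26.9%). The copy with more sites had the higher median coverage over its listed sites in 5 pairs and the lower in 8. The same count was not taken over the list, and the part of coverage was not tested.

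**Figure D4:**
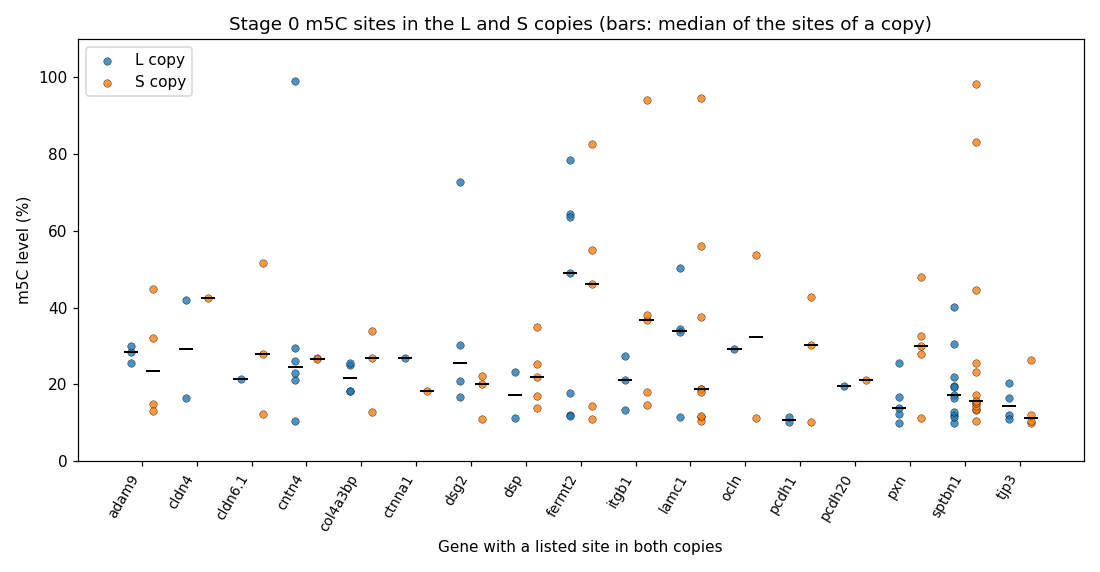
For the 17 genes with listed stage 0 sites in both copies, the level in percent of each site is shown for the L copy (blue) and the S copy (orange), with a bar at the median of a copy. The highest point belongs to the S copy in 14 genes, in 8 of them with overlapping 95% intervals, and to the L copy in cntn4, dsg2 and ctnna1.

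At stage 25 no site in these genes was listed, nor was any of them among the 36 sites listed at both stages. The stage 0 share of 1.34% of sites would correspond to 0.604 sites in a list of 45, which is fewer than 1. A cytosine missing from the list may be unmethylated, below 10%, covered by fewer than 20 reads or removed by another filter of the calling. These cannot be told apart in the lists. Whether the individual positions lost methylation was therefore not measured.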

How the data were processed

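RNA bisulfite libraries of stage 0 and stage 25 embryos were grouped by the stage in their labels. Per the study's methods and the submitters' processing notes, the authors trimmed reads with cutadapt and Trimmomatic, mapped them to the converted v9.2 genome with HISAT2 2.10 and the remainder to transcripts with Bowtie2, and called sites with minimum coverage, level and signal ratio after removing poorly converted reads and genes, which can also remove reads with many m5C sites. Each deposited list combines the 2 libraries of a stage. The deposited coverage is a count of C and T reads that is not normalized, the deposited level is a fraction (given here in percent), and the deposited p-value is the authors' value for each call and was not used in any test. C reads were recovered as coverage times level, whole within 0.001 reads. Library totals were not used here. In the stage 0 list, coverage ran from 20 to 49613 reads per site, and the Wilson interval (95%) gives the precision. A genome of that build was not used here, so sequence, exon and UTR position were not analysed, and positions are printed as deposited, with their origin at 0 or 1 unknown.

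Members were found by name, and the members, families and tests were chosen with earlier results of these data known. Every member was counted in its family. Genes were to be named by site number (3 per family), by the highest lower Wilson bounds (10), by coverage (5), by sites in both copies (10) and by closeness of sites (5), and others were named to complete each family. The values of 1 gene are included in the counts but not reported here. The chi-square test of homogeneity was run over all genes with several sites with Benjamini-Hochberg adjustment (threshold 0.05). It was tried on simulated reads drawn independently at the deposited coverages, so spread between replicates and shared fragments were not part of that trial. Fisher's exact test was run over the 36 sites shared between stages and gave no value for these genes, because no member site was shared. Alternatives were other coverage and level minimums, chromosomes, memberships, weights and test settings. The study names the replicates both technical and biological, in different places. Python 3.11.15, pandas 2.3.3, scipy 1.17.1 and matplotlib 3.10.9 were used.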

Additional observations from a re-analysis of the deposited data

How the results depend on the processing

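Raising the level minimum from 10% changed the counts by construction, since 101 of the 218 sites (46.3%) were below 20%. The 218 sites became 117 at a minimum of 20% and 70 at 30%, and the 63 genes became 36 at 30%. The median level of 21.3% became 33.4% and 48.6%. Weighting by reads gave a pooled level of 33.8%, compared with 29.3% over all listed sites. Without the cldn6 genes it was 34.9%, a setting chosen after seeing the data. Coverage minimums of 50 and 100 reads, assembled chromosomes only, dropping col4a3bp, 1 value per gene and leaving out the gene with the most sites kept the counts of sites and genes within 1.5 times and the median within the spread between sites. Of 20 site and gene counts by family, 10 moved at a level minimum of 20%, 17 at 30%, 1 at 50 reads, 5 at 100 reads and the 2 counts of col4a3bp without it. Genes whose sites differed numbered 29 of 35 with at least 100 reads per site, 35 of 45 by the likelihood-ratio statistic and 31 of 45 at an adjusted p under 0.001, beside 81.4%, 74.3% and 63.1% of all genes tested. No site was listed at stage 25 under any of these settings.

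No paired analysis was possible because each list combines the 2 replicates of a stage, so a replicate cannot be left out either. Depth limits most levels: the median interval spans 5.63 percentage points to either side, and the highest sites of vcl.S, cldn6.1.S, col24a1.L, pkp4-b and itgb5.L rest on fewer than 80 reads. The split of reads among similar gene copies is uncertain.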

Other observations

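The names were also set against the protein-coding genes of the RefSeq list of the assembly v10.1, used for names only because its build differs. Of 353 annotated symbols that fit the name pattern, 57 (16.1%) had a listed site at stage 0, compared with 5691 of 34476 (16.5%) over all protein-coding symbols, so the group as a whole was listed about as often as other genes. The families differed widely in this share. Catenins and plaque proteins were listed for 8 of 14 symbols, cell-matrix linkers for 7 of 18 and tight junction genes for 11 of 46, whereas matrix genes were listed for 5 of 92. Among the latter, collagens, the structural fibres and sheets of the matrix, were listed for 2 of 58 symbols, laminins for 2 of 12, and thrombospondins and nidogens for 0 of 12. Integrin β subunits were listed for 3 of 12 symbols and α subunits for 3 of 22. Of the cadherins named cdh, 1 of 34 was listed, and of the protocadherins 4 of 27. ADAM genes were listed for 5 of 21 symbols and ADAMTS genes, which are secreted, for 1 of 36. The lists do not tell an mRNA that was not covered from one that was not methylated, so the part of expression in these shares was not tested. In all, 59 of the 63 listed member names matched a RefSeq symbol or synonym.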
